A study of Mus musculus with 84 samples.

Results

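The response of the mouse colon transcriptome to transplanted gut bacteria was compared between hosts on 2 diets, using the 12 colon RNA sequencing libraries of bacteria recipients among the 84 samples of the series. All 12 libraries entered a single fit, and the quantity described for each gene is the interaction, (HFDHFB − HFDLFB) − (LFDHFB − LFDLFB), on the log2 scale. A positive interaction means that bacteria from obese donors went with a higher level, relative to bacteria from lean donors, on the high fat diet than on the low fat diet.

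The recipients were male germ-free C57BL/6 mice, bought at 5 weeks of age, which were gavaged 4 times a week for 5 weeks with stool suspensions of male donors kept on a high fat diet (HFB) or a low fat diet (LFB). They were fed either a high fat diet with 60% fat (HFD) or a control, low fat diet with 10% fat (LFD). The 4 groups were HFDHFB, HFDLFB, LFDHFB and LFDLFB, with the diet of the host named first and the source of the bacteria second, and each held 3 libraries. The labels mark the 3 libraries of a group as replicates without tying them to animals, so the p-values measure the spread between these libraries. How many donors supplied each group is not given in the sources used here. The RNA came from cells scraped from the colon, and a change in the share of a cell type cannot be told apart from a change in RNA per cell.

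Colon epithelial cells draw much of their energy from microbial short-chain fatty acids, which are oxidised in mitochondria, and the mucus that separates them from the bacteria is made by goblet cells. A host diet rich in fat changes which substrates reach both the bacteria and the epithelium. An interaction asks whether the same difference in bacteria goes with the same difference in gene expression in hosts on different diets.

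The libraries held 39904191 to 48026846 counted reads. Of 25494 genes in the table, 15893 passed the filter on low counts and were tested. The median standard error (SE) of the interaction was 0.326 on the log2 scale. One library, LFDHFB replicate 3, lay apart from the rest, with a median correlation of 0.941 to the other libraries against 0.963 to 0.977 for those, and its Hoxd13 level, a gene of the distal colon, was 0.519 CPM (reads of a gene per 1000000 reads) against 8.23 to 148 in the other 11 libraries. HFDLFB replicates 1 and 2 carried more adipocyte and mesothelial RNA than the other libraries, as described with those genes.

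No gene passed an adjusted p of 0.05 for the interaction in edgeR's quasi-likelihood test with Benjamini-Hochberg adjustment, which is 0% of the genes tested, and the smallest adjusted p was 0.386. At an unadjusted p under 0.05 there were 1794 genes, or 11.3%, with 1007 higher (6.34%) and 787 lower (4.95%). Whatever their p, 7262 of the genes tested had a positive and 8631 a negative interaction, the background for the sign counts of the gene lists. DESeq2 called 72 genes at an adjusted p under 0.05, 57 higher and 15 lower, and limma-voom called 0. At the threshold of p under 0.001 there were 19 genes (0.12%), 16 with a positive and 3 with a negative interaction. That count rested on single libraries: it was 121 without HFDHFB replicate 1, 3 without HFDHFB replicate 2 or 3, 5, 4 and 55 without HFDLFB replicates 1, 2 and 3, 6 without LFDHFB replicate 2 or 3, and 2 and 3 without LFDLFB replicates 1 and 2. For the bacteria alone, 1441 genes (9.07%) had an unadjusted p under 0.05 on the HFD and 592 (3.72%) on the LFD, and edgeR called 0 genes at an adjusted p under 0.05 on either diet.

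Of the 12 genes with the smallest p and a positive interaction, 11 had opposite responses on the 2 diets, that is, higher with HFB than LFB on the HFD and lower with HFB than LFB on the LFD, with neither response over 3 times the other. In 11 of the 12 the libraries did not overlap on either diet, a pattern present in 1.32% of all genes tested, though these 12 were ranked on the same values.

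Rnaseh2c (chr19:5601873-5602959, mm9), which encodes a subunit of the ribonuclease that removes ribonucleotides from DNA, had the smallest p. Its level was 17.1, 19.1 and 21.9 CPM in HFDHFB, 12.6, 13.6 and 14.4 in HFDLFB, 10.7, 10.5 and 10.5 in LFDHFB, and 16.5, 15.7 and 14.1 in LFDLFB. Every HFDHFB library lay above every HFDLFB library, and every LFDHFB library below every LFDLFB library. The log2 response to HFB was 0.51 on the HFD and -0.55 on the LFD, an interaction of 1.06 ± 0.19 (SE; edgeR adjusted p = 0.386).

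Dad1, a subunit of the oligosaccharyltransferase of the endoplasmic reticulum, was at 107, 144 and 126 CPM in HFDHFB and at 91.3, 91.4 and 94.4 in HFDLFB. In LFDHFB it was at 90.5, 87.3 and 84.5 CPM, against 104, 115 and 107 in LFDLFB. The 2 pairs of groups were apart in opposite directions, with an interaction of 0.76 ± 0.16. Eif4a3, the RNA helicase of the exon junction complex, was at 78.3, 83.8 and 81.7 CPM in HFDHFB, 63.1, 60.2 and 66.2 in HFDLFB, 69.0, 66.7 and 61.7 in LFDHFB, and 77.3, 83.1 and 73.3 in LFDLFB. Its HFDHFB and LFDLFB libraries overlapped, as did its HFDLFB and LFDHFB libraries, so that the level separated hosts whose diet matched that of the donors from hosts whose diet did not. The same arrangement was seen for Mrps12, a mitochondrial ribosomal protein with an interaction of 0.85 ± 0.18. The interaction is itself the matched groups minus the unmatched ones. These genes were ranked on it, so their choice favoured this arrangement. Psmb3, a proteasome subunit with an interaction of 0.57 ± 0.13, was apart on each diet, but HFDLFB replicate 3 lay within LFDLFB. With offsets fitted to transcript length and GC content in each library, described with transcript length, the interaction was 0.76 for Rnaseh2c, 0.44 for Dad1, 0.48 for Eif4a3, 0.43 for Mrps12 and 0.28 for Psmb3. Zfp771, a zinc finger protein expressed at 2.88 to 8.16 CPM, had the largest interaction of the 12, 1.59 ± 0.31.

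**Figure D1:**
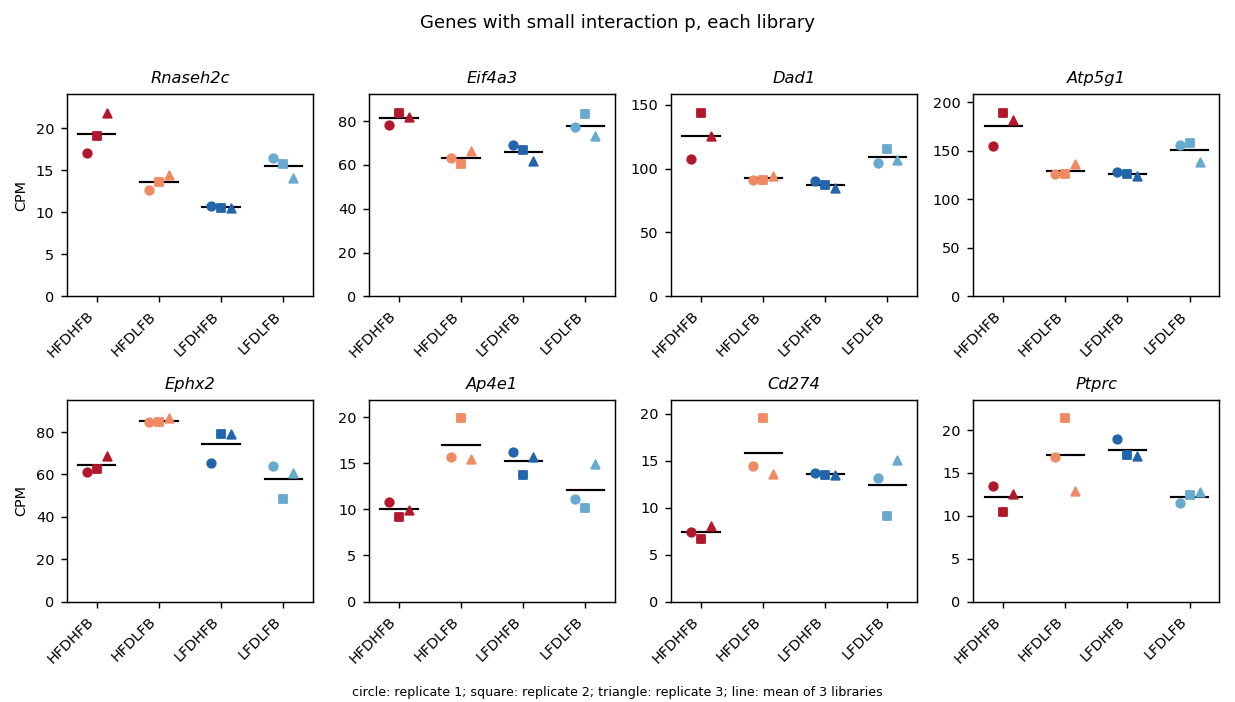
Level in CPM (vertical axes, from 0) of 8 genes with a small interaction p in each of the 12 libraries, by group, with markers for replicates and a line at the mean of 3. In the upper row HFDHFB lies above HFDLFB while LFDHFB lies below LFDLFB, and in the lower row HFDLFB and LFDHFB tend to lie above the other groups, with Cd274 low in HFDHFB alone.

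Among the 12 genes with the smallest p and a negative interaction, 9 had opposite responses. The other 3 responded mainly on the HFD side, with a response there over 3 times that on the LFD. Ephx2, the soluble epoxide hydrolase that degrades lipid epoxides, was at 61.2, 62.6 and 69.0 CPM in HFDHFB, 84.7, 84.7 and 86.7 in HFDLFB, 65.4, 79.3 and 79.0 in LFDHFB, and 64.0, 48.5 and 60.8 in LFDLFB. Its responses on both diets had the reverse sign of those of Rnaseh2c, without overlap on either diet, and its interaction was -0.78 ± 0.17. The libraries were apart on both diets in 5 of the 12, and in 0.315% of all genes tested, though these 12 were also ranked on the same values.

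Cd274, which encodes the immune checkpoint ligand PD-L1, was at 7.41, 6.65 and 8.01 CPM in HFDHFB and at 14.4, 19.5 and 13.6 in HFDLFB. It was at 13.7, 13.5 and 13.4 CPM in LFDHFB and at 13.2, 9.12 and 15.03 in LFDLFB. HFDHFB was lower than every other library, and the LFD groups overlapped. The response was -1.11 on the HFD and 0.12 on the LFD, an interaction of -1.23 ± 0.28. Ptprc, the pan-leukocyte phosphatase CD45, was at 13.5, 10.5 and 12.6 CPM in HFDHFB, 16.8, 21.4 and 12.9 in HFDLFB, 19.0, 17.1 and 16.9 in LFDHFB, and 11.5, 12.4 and 12.8 in LFDLFB, an interaction of -1.02 ± 0.26. Dpp4, a peptidase that cleaves incretin hormones, was at 63.7 to 79.6 CPM in HFDLFB against 36.1 to 63.1 in the other 9 libraries, with an interaction of -1.01 ± 0.25. Ap4e1, a subunit of the AP-4 vesicle adaptor, had an interaction of -1.10 ± 0.25. Xlr4a, Vnn3 and Nlrc3, also among the 12, were under 2 CPM in every library. E030003E18Rik, with the smallest p of the 12, had an interaction of -3.17 ± 0.68. It was at 1.88 and 3.17 CPM in HFDLFB replicates 1 and 2 and at most 1.49 in any other library.

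Nuclear genes of oxidative phosphorylation encode the respiratory chain and the ATP synthase. All 76 members tested had a positive interaction, 51 at an unadjusted p under 0.05 (67.1%, against 6.34% of all genes) and 0 at an adjusted p under 0.05 in edgeR. DESeq2 gave 52 of 77 at an unadjusted p under 0.05. The median interaction was 0.491, against -0.053 over all genes tested, and was made of a median response of 0.236 on the HFD and of -0.257 on the LFD. Responses were opposite in 72 of 76 members, against 38.4% of all genes. On the LFD 51 of 76 had all LFDHFB libraries below all LFDLFB libraries (5.56% of all genes). On the HFD 25 had all HFDHFB libraries above all HFDLFB libraries (8.08% of all genes), and 19 did both (1.32% of all genes).

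The sign was shared by all complexes. The median interaction was 0.51 over 36 subunits of complex I, the NADH dehydrogenase, 0.40 over 4 of complex II, 0.58 over 10 of complex III and cytochrome c, 0.49 over 10 of complex IV, the cytochrome oxidase, and 0.47 over 16 of the ATP synthase. Atp5g1, a c-ring subunit of the ATP synthase (chr11:95934107-95937008, mm9), was at 155, 190 and 182 CPM in HFDHFB, 126, 126 and 136 in HFDLFB, 128, 126 and 125 in LFDHFB, and 156, 159 and 139 in LFDLFB. Every library of a matched diet and donor was above every unmatched one, and the interaction was 0.70 ± 0.15. Atp5g1 was among the genes ranked on the interaction, which is the matched groups minus the unmatched ones, so its choice favoured this order. Ndufb7 of complex I was at 110, 129 and 129 CPM in HFDHFB, 96.7, 97.8 and 94.6 in HFDLFB, 89.5, 92.9 and 85.1 in LFDHFB, and 114, 114 and 98.7 in LFDLFB, an interaction of 0.63 ± 0.14. Cyc1, the cytochrome c1 of complex III, had 0.64 ± 0.16. These 3 values depended on the offsets for transcript length and GC content, under which they were 0.27 for Atp5g1, 0.17 for Ndufb7 and 0.35 for Cyc1, with unadjusted edgeR p of 0.172, 0.448 and 0.166.

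The promoters of 64 of the 76 members were in the RefSeq table (GRCm38.p6), and the 250 bases before the start site were searched on both strands. The palindromic motif of NRF1, a factor of respiratory genes, occurred in 4 of 64 (6.25%) against 1.45% of 12504 tested genes with a promoter, and the ETS letters CCGGAAG in 11 (17.2%) against 12.1%. The 4 with the NRF1 motif were Atp5g2, Atp5k, Cox6a1 and Ndufa11. Of these, Cox6a1 and Ndufa11, subunits of complexes IV and I with interactions of 0.63 ± 0.24 and 0.63 ± 0.17, are shown as examples. Atp5g1 is shown because it holds neither motif. Capitals mark the matched letters on the strand printed.
Cox6a1 (chr5.0:115348959.0-115349208.0, minus strand): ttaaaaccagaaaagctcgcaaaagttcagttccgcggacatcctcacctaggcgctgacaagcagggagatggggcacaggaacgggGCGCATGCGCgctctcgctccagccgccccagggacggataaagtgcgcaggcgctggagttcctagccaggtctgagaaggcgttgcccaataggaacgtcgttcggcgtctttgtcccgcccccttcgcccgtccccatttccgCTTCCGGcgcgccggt
Ndufa11 (chr17.0:56717512.0-56717761.0, plus strand): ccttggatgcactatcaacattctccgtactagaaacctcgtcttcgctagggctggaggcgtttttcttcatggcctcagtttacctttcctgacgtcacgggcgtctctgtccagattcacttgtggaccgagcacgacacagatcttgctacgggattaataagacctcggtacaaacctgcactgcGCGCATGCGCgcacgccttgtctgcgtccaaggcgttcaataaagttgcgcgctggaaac
Atp5g1 (chr11.0:96075632.0-96075881.0, minus strand): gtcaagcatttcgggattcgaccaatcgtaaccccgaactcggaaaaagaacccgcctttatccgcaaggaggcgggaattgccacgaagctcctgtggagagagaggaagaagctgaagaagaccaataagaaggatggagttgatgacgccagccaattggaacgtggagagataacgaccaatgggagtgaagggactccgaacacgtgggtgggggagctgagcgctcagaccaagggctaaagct
A match is a description of the letters and not a binding site. In the lists of H3K27ac regions, a mark of active promoters and enhancers, from isolated colon epithelial cells of the same 4 groups, a region overlapped the 500 bases on either side of the start site of 76 of 76 members in 11 of 11 libraries, against 67.5% of all genes tested. The lists give presence and not height, so they hold no comparison between groups for these promoters.

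Cytosolic ribosomal protein genes, the other large set, had the same sign and shape. Of these, 78 of 80 had a positive interaction, 52 at an unadjusted p under 0.05 (65.0%). The median was 0.634, and 79 of 80 were opposite, against 38.4% of all genes. Rplp1, of the ribosomal stalk, was at 947, 1465 and 1396 CPM in HFDHFB, 894, 768 and 937 in HFDLFB, 798, 762 and 654 in LFDHFB, and 1104, 981 and 873 in LFDLFB. HFDHFB replicate 1 lay close to HFDLFB, and the interaction was 0.97 ± 0.26, and 0.47 with offsets for length and GC content. Reads of ribosomal protein genes can be shared with their many processed pseudogenes. Further sets were chosen after their values were seen, so that their counts are a description. Positive interactions were found for 76 of 76 mitochondrial ribosomal proteins, with 51 at an unadjusted p under 0.05, against 6.34% of all genes higher. They were also found for 27 of 28 spliceosomal Sm, LSm and Sf3b proteins, with 17 at that p, and 32 of 37 proteasome subunits, with 12. Of protein-coding transcripts under 1000 bases, 29.2% were higher at that p. No counts with offsets for transcript length were made for these sets. With offsets for length and GC content, the interaction of Mrps12 went from 0.85 to 0.43 and that of Sf3b5 from 0.76 to 0.33. In the other sets, 232 of 327 Zfp zinc finger genes and 170 of 266 solute carriers were negative, against 8631 of 15893 genes tested. At an unadjusted p under 0.05, 16 Zfp genes were lower and 6 higher, and 16 solute carriers were lower and 10 higher. These lower counts lay near the 4.95% of all genes.

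**Figure D2:**
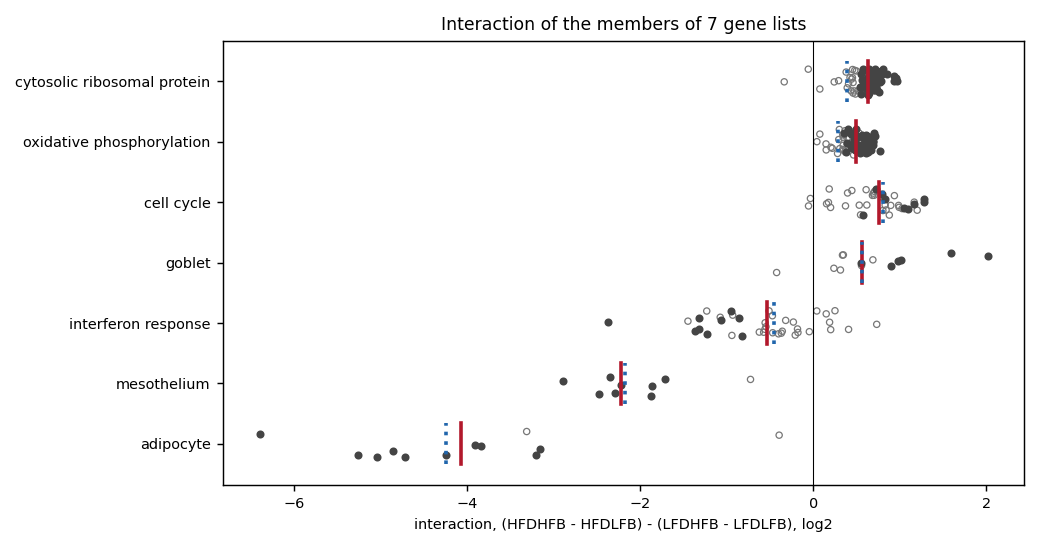
Interaction on the log2 scale (horizontal axis) of each member of 7 gene lists, as filled points where the unadjusted p was under 0.05 and open points otherwise, with a solid line at the list's median and a dotted line at the median after offsets fitted to transcript length. The ribosomal and oxidative phosphorylation medians move toward 0 under the offsets, from 0.63 to 0.39 and from 0.49 to 0.29, while the other 5 medians stay within 0.2 of their first value.

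Transcript length moved with the interaction. Over all protein-coding genes tested, excluding the ribosomal and oxidative phosphorylation genes, the median interaction went from 0.30 for 1044 transcripts under 1000 bases to -0.32 for 2208 of 5000 bases or more, with 0.19, 0.08, -0.01 and -0.15 in the bins between. The genes with an unadjusted p under 0.05 had a median length of 1323 bases where the interaction was positive and 3541 where it was negative, against 2682 over all protein-coding genes, and a median GC content of 55.3% and 46.8%. Oxidative phosphorylation and ribosomal protein transcripts had a median length of 800 and 725 bases. Within the bin under 1000 bases the 46 oxidative phosphorylation genes had a median interaction of 0.55 against 0.30 for the other genes, and from 2000 up to 3000 bases 5 of them had 0.35 against -0.01.

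By library, the median log2 level of transcripts under 1000 bases minus that of transcripts of 5000 bases or more, each relative to the mean of 12 libraries, was -0.11, 0.38 and 0.44 in HFDHFB, 0.07, -0.23 and -0.10 in HFDLFB, -0.07, -0.23 and -0.38 in LFDHFB, and 0.11, 0.16 and -0.03 in LFDLFB. It was highest in HFDHFB replicates 2 and 3 and lowest in LFDHFB replicate 3, while HFDHFB replicate 1 lay among the other groups. With offsets fitted to transcript length in each library, 14 of 76 oxidative phosphorylation genes (18.4%) and 12 of 78 ribosomal protein genes (15.4%) had an unadjusted p under 0.05 and a positive interaction, against 4.04% of the genes in that fit, and 74 and 76 were positive. With GC content added to the offsets the counts were 10 of 76 and 14 of 78, against 3.10%. The part of RNA integrity or library preparation in these differences was not tested.

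**Figure D3:**
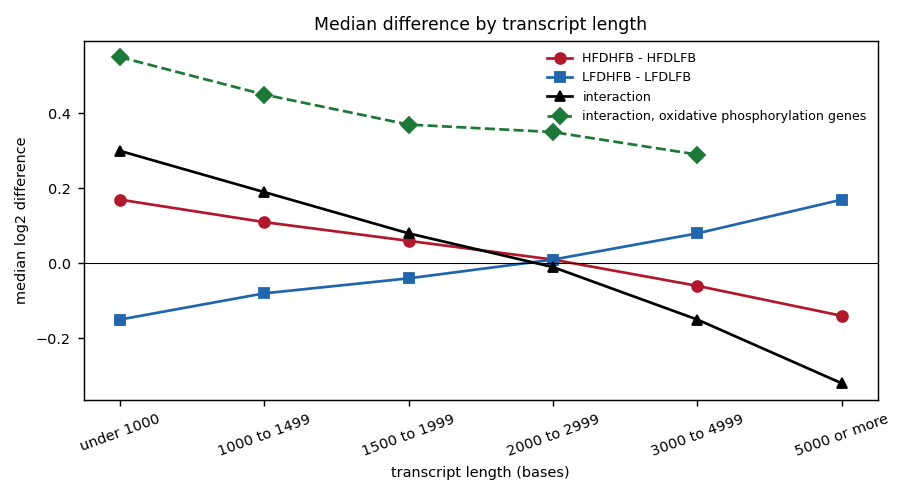
Median log2 difference (vertical axis) by transcript length (horizontal axis, bases) for the response to HFB on the HFD, on the LFD and their interaction, over protein-coding genes without the ribosomal and oxidative phosphorylation genes, and for the interaction of oxidative phosphorylation genes. The responses on the 2 diets run in opposite directions with length, and the oxidative phosphorylation genes stay above the other genes in each of their 5 bins, of which the 2 longest hold 5 and 2 of them.

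Leaving out single libraries moved the counts more than the medians. For oxidative phosphorylation, 30 members had an unadjusted p under 0.05 without HFDHFB replicate 3 or LFDLFB replicate 1, at medians of 0.38 and 0.40. For ribosomal proteins the count was 19 without HFDHFB replicate 2 or LFDLFB replicate 1, 23 without HFDHFB replicate 3, 24 without HFDLFB replicate 2, 30 and 28 without LFDHFB replicates 2 and 3, and 28 without LFDLFB replicate 2. Without HFDLFB replicates 1 and 2 together, 17 oxidative phosphorylation genes and 1 ribosomal protein gene had an unadjusted p under 0.05, with medians of 0.39 and 0.47.

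Cell cycle genes also had mostly positive interactions, but with another shape. Of 40 members, 38 were positive, 9 at an unadjusted p under 0.05 (22.5%, against 6.34% of all genes), and the median was 0.761. By shape, 21 responded mainly on the HFD side and 15 were opposite, against 23.8% and 38.4% of all genes. Stmn1, a microtubule regulator high in dividing cells, was at 32.8, 40.7 and 36.0 CPM in HFDHFB, 18.4, 22.3 and 24.5 in HFDLFB, 27.4, 28.2 and 24.3 in LFDHFB, and 28.2, 30.6 and 23.6 in LFDLFB. HFDHFB was above and HFDLFB mostly below the overlapping LFD groups, and the interaction was 0.79 ± 0.20. Tk1, the thymidine kinase of S phase, had 1.28 ± 0.39 and Ube2c, a ubiquitin conjugating enzyme of mitosis, 1.17 ± 0.41. The summed level of the list in CPM was 890, 706 and 588 in HFDHFB and 267, 574 and 593 in HFDLFB, with HFDLFB replicate 1 lowest of the 12. The median was 0.81 with length offsets, with 10 members at an unadjusted p under 0.05, and 0.46 without HFDLFB replicate 1. The count was 18 without HFDLFB replicate 2 and 3 without LFDLFB replicate 2.

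Goblet cell genes had 12 of 13 positive interactions and 6 at an unadjusted p under 0.05 (46.2%, against 6.34% of all genes). By shape, 6 of 13 responded mainly on the HFD side and 6 were opposite, against 23.8% and 38.4% of all genes. Muc2, the main gel-forming mucin, was at 2192, 1796 and 1507 CPM in HFDHFB, 527, 613 and 845 in HFDLFB, 1067, 1534 and 1543 in LFDHFB, and 612, 2721 and 1193 in LFDLFB. The HFD groups did not overlap, and LFDLFB held both low and high values. The interaction of Muc2 was 1.60 ± 0.61, and 0.82 with an unadjusted edgeR p of 0.0817 without LFDLFB replicate 2. Retnlb, the goblet cell peptide RELM-beta, was at 139, 168 and 63.4 CPM in HFDHFB and 65.0, 11.7 and 35.0 in HFDLFB, where it was lowest, while the LFD groups held 172 to 357, and its interaction was 2.02 ± 0.74. Spdef, a transcription factor of goblet cell maturation, had 1.01 ± 0.34. The count was 3 without HFDLFB replicate 1 and 2 without LFDLFB replicate 2. Gcg, the proglucagon gene of enteroendocrine L cells, was at 37.5, 43.3 and 47.1 CPM in HFDHFB and 13.6, 21.8 and 20.2 in HFDLFB, with 24.1, 23.2 and 35.0 in LFDHFB and 30.6, 54.8 and 19.4 in LFDLFB, an interaction of 1.55 ± 0.46. It was the 1 enteroendocrine gene of 16 higher at an unadjusted p under 0.05, in a list with 11 negative members and a median of -0.571.

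Large negative interactions were found for adipocyte and mesothelial genes, whose summed levels were highest in HFDLFB replicates 1 and 2. All 12 adipocyte markers tested were negative, 10 at an unadjusted p under 0.05 (83.3%, against 4.95% of all genes), with a median of -4.07. The summed level of the list was 211, 728 and 428 CPM in HFDHFB, 1655, 4107 and 659 in HFDLFB, 290, 646 and 1560 in LFDHFB, and 505, 414 and 302 in LFDLFB. HFDLFB replicates 1 and 2 and LFDHFB replicate 3 were the 3 highest, and HFDLFB replicate 3 lay within the range of the other groups. Adipoq, the adipocyte hormone adiponectin, was at 1.73, 52.1 and 19.96 CPM in HFDHFB, 163, 426 and 47.9 in HFDLFB, 1.36, 46.0 and 136 in LFDHFB, and 29.2, 13.1 and 5.54 in LFDLFB. Limma-voom gave 1 member at an unadjusted p under 0.05. The count was 4 without HFDLFB replicate 2, 3 without LFDHFB replicate 3, 6 without LFDLFB replicate 3 and 0 without HFDLFB replicates 1 and 2 together, where the median was -2.05.

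Mesothelial markers, of the serosal surface, were negative in 9 of 9, with a median of -2.22. At an unadjusted p under 0.05 there were 8 (88.9%, against 4.95% of all genes). Upk3b was at 13.6, 14.0 and 35.0 CPM in HFDHFB, 148, 180 and 35.3 in HFDLFB, 49.9, 26.5 and 33.1 in LFDHFB, and 20.3, 26.0 and 83.8 in LFDLFB. The summed level of the list was 441, 547 and 106 CPM in HFDLFB, against 55.7 to 228 over the other 9 libraries. The count was 5 without LFDHFB replicate 3, 3 without any of HFDHFB replicates 1 and 2, HFDLFB replicates 1 and 2, LFDHFB replicate 1 and LFDLFB replicates 1 and 2, and 0 without HFDLFB replicates 1 and 2 together, where the interaction of Msln, mesothelin, was 0.02 in place of -1.88. In the H3K27ac lists of isolated epithelial cells, 8 of 12 adipocyte and 8 of 9 mesothelial genes had no region at the start site in any of 11 libraries, against 19.7% of all genes tested. Of 4 exocrine pancreas markers tested, 2 had a negative interaction at an unadjusted p under 0.05, against 4.95% of all genes. This count rests on HFDLFB replicate 3, where Cpb1, a pancreatic carboxypeptidase, was at 64.2 CPM against at most 1.05 in the other 11 libraries.

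**Figure D4:**
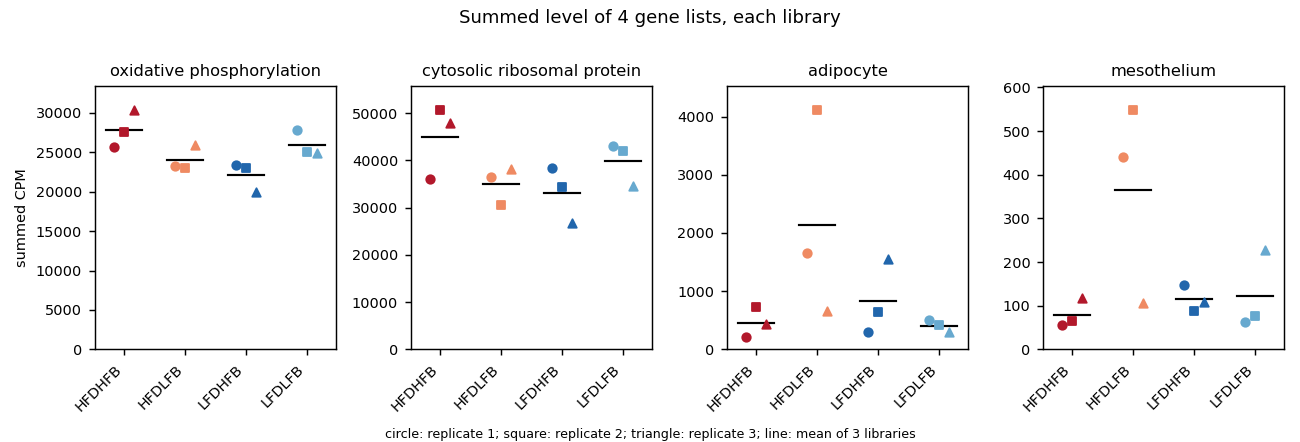
Summed level in CPM (vertical axes, from 0) of 4 gene lists in each library, by group. Oxidative phosphorylation and ribosomal protein genes are highest on average in HFDHFB and lower in HFDLFB and LFDHFB, with the lowest library LFDHFB replicate 3 in both, while adipocyte and mesothelial genes are highest in HFDLFB replicates 1 and 2.

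Other named genes were also high in HFDLFB replicates 1 and 2. Fmo2, a flavin monooxygenase, was at 23.5, 37.0 and 40.6 CPM in HFDHFB, 284, 218 and 73.0 in HFDLFB, 77.6, 68.3 and 70.6 in LFDHFB, and 44.5, 43.5 and 113 in LFDLFB. All HFDHFB libraries were below all HFDLFB libraries, of which the third lay among the LFD libraries, and the interaction was -2.61 ± 0.67 and -1.22 without HFDLFB replicates 1 and 2. Cybrd1, a ferric reductase, was at 17.9 and 25.3 CPM in HFDLFB replicates 1 and 2 and between 1.18 and 5.75 in the other 10 libraries, an interaction of -3.51 ± 0.94 that was -0.97 without those 2 libraries. Cd36, the fatty acid translocase, had -4.69 ± 1.22, and -2.72 without them. Scd1, the stearoyl-CoA desaturase, had -4.23 ± 1.49, and -1.76 without them, but its highest level was 2093 CPM in LFDHFB replicate 3 against 76.1 and 369 in the other LFDHFB libraries. C3, the central component of the complement system, had -2.51 ± 0.96, and -0.88 without HFDLFB replicates 1 and 2. Of 21 complement genes 7 were lower at an unadjusted p under 0.05. Of all genes tested, 4.95% were lower and 6.34% higher at that p. Of 21 genes that the study named for recipients on these samples, and so no independent evidence, 7 were higher and 11 lower at an unadjusted p under 0.05. Of these 21 genes, 17 responded mainly on the HFD side. The paper reports such genes, Fmo2 and Scd1 among them, from a comparison of HFDHFB with HFDLFB, so the choice favoured that shape. The part of adipose or serosal tissue in these values was not tested.

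In other genes LFDHFB replicate 3 was the highest library. Slc10a2, the apical bile acid transporter best known from the ileum, was at 61.8, 117 and 86.8 CPM in HFDHFB, 271, 65.3 and 159 in HFDLFB, 103, 114 and 768 in LFDHFB, and 44.5, 81.2 and 78.8 in LFDLFB. The interaction of Slc10a2 was -3.17 ± 1.04, and -1.55 with an unadjusted edgeR p of 0.0376 without that library. Ppara, the fatty acid sensing nuclear receptor, was at 43.0, 59.5 and 56.6 CPM in HFDHFB, 87.0, 32.1 and 59.1 in HFDLFB, 30.1, 42.1 and 200 in LFDHFB, and 24.4, 33.1 and 21.9 in LFDLFB, an interaction of -1.94 ± 0.85 that was -0.59 without it. Fmo5 had -1.71 ± 0.65, and -0.90 without it. Angptl4, a target of the PPAR receptors that inhibits lipoprotein lipase, was at 1.78, 3.29 and 15.99 CPM in LFDHFB and 2.52, 0.372 and 0.526 in LFDLFB, but reached 21.8 in HFDLFB replicate 2, and had -3.75 ± 1.29, and -2.25 without LFDHFB replicate 3. Nr1h4, the bile acid receptor FXR, had -0.68 ± 0.28. Of 21 genes of short-chain fatty acid and bile acid sensing, 6 were lower and 0 higher at an unadjusted p under 0.05. Of 39 genes of fatty acid oxidation 5 were lower and 2 higher. Of all genes tested, 4.95% were lower and 6.34% higher at that p. The part of the position along the colon in these values was not tested.

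**Figure D5:**
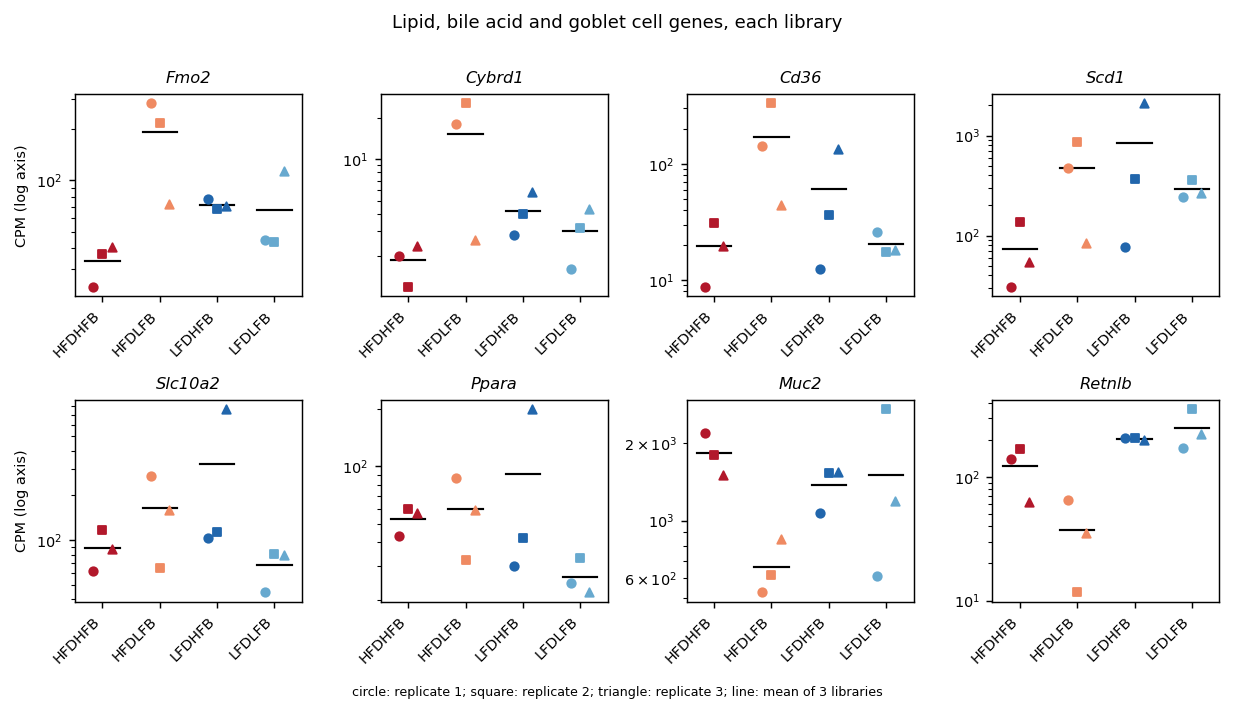
Level in CPM (vertical log axes) of 8 genes of lipid and bile acid handling and of goblet cells in each library, by group. Fmo2, Cybrd1 and Cd36 are highest in HFDLFB replicates 1 and 2, Scd1, Slc10a2 and Ppara are highest in LFDHFB replicate 3, and Muc2 and Retnlb are lowest on average in HFDLFB.

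Interferon response genes were negative in 31 of 38, with 9 at an unadjusted p under 0.05 (23.7%) and a median of -0.528. All HFDHFB libraries lay below all HFDLFB libraries in 12 (31.6%, against 4.9% of all genes). By shape, 22 responded mainly on the HFD side and 9 were opposite, against 23.8% and 38.4% of all genes. Oas3, an antiviral oligoadenylate synthetase, was at 5.41, 5.96 and 5.63 CPM in HFDHFB, 11.3, 8.75 and 7.24 in HFDLFB, 8.45, 15.5 and 15.9 in LFDHFB, and 9.86, 7.59 and 8.14 in LFDLFB. HFDHFB was below all other libraries, and the interaction was -1.32 ± 0.36. Cd274 is a member of this list. Ido1, the tryptophan degrading enzyme induced by interferon gamma, was at 43.0, 52.0 and 42.6 CPM in LFDHFB, above the other 9 libraries at 18.3 to 39.2, and had -1.25 ± 0.35. Genes of MHC class II were negative in 10 of 10, with 1 at an unadjusted p under 0.05, and leukocyte markers in 11 of 14, with 3. Of all 15893 genes tested, 8631 were negative, and 4.95% were lower at that p. The interferon count was 5 without HFDHFB replicate 2, HFDLFB replicate 2 or LFDLFB replicate 2.

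Of 19 clock genes 18 were negative, 2 at an unadjusted p under 0.05, and Nr1d2, the repressor REV-ERB-beta, was at 171, 164 and 181 CPM in LFDHFB against 101 to 168 in the other libraries, with overlap, an interaction of -0.73 ± 0.19 that was -0.32 with offsets for length and GC content. Of 28 immediate early genes, 17 were positive and 11 negative, with 3 higher and 0 lower at an unadjusted p under 0.05. At that p, 6.34% of all genes tested were higher and 4.95% lower. Jund, an AP-1 subunit, was at 268, 293 and 333 CPM in HFDHFB, 249, 198 and 228 in HFDLFB, 213, 241 and 164 in LFDHFB, and 314, 275 and 354 in LFDLFB, a crossover without overlap on either diet and with an interaction of 1.01 ± 0.24, which was 1.11 with length offsets and 0.86 with offsets for length and GC content.

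No member of the epithelium, absorptive colonocyte, tuft, stem cell, endothelium or smooth muscle lists had an unadjusted p under 0.05, although all 10 endothelial markers were negative and 10 of 12 smooth muscle markers positive. The counts that follow are at an unadjusted p under 0.05, which 6.34% of all genes passed as higher and 4.95% as lower. The summed epithelial markers ranged from 11559 to 17518 CPM, so that epithelium was present in every library. Of 20 tight junction genes 1 was higher and 0 lower, of 32 histone acetylation genes 1 was higher and 0 lower, and of 29 intestinal transcription factors 2 were higher and 1 lower. The 37 genes of cholesterol and fatty acid synthesis were split, with 2 higher and 2 lower. Of 16 heat shock genes 3 were higher and 0 lower, of 31 unfolded protein response genes 1 was higher, and of 24 glycolysis and hypoxia genes 1 was lower. Of 40 xenobiotic metabolism genes 3 were higher and 7 lower, among them Ephx2, and of 29 ion and water transport genes 1 was higher and 2 lower. Of 5 flavin monooxygenases 4 were lower, Fmo2 and Fmo5 among them. Of 33 Hox genes 2 were higher and 2 lower, of 28 antimicrobial genes 1 was higher and 1 lower, and of 16 enteroendocrine genes 1 was higher and 1 lower. Of 13 fibroblast markers 1 was lower, and of 13 markers of enteric neurons and glia 0 passed. On the LFD alone, all LFDHFB libraries lay above all LFDLFB libraries in 5.25% of all genes tested. Over all genes tested, 38.4% had opposite responses, 23.8% responded on the HFD side, 16.3% on the LFD side and 21.6% in the same direction on both diets.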

How the data were processed

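Colon RNA of recipients was sequenced in 12 libraries. The authors aligned reads with STAR 2.5 to mm9 and counted them per gene with featureCounts 1.5.0-p1, per the labels, and deposited raw counts. The library kit and its strandedness are not given in the sources used here. The deposited H3K27ac region lists of the recipients, made with SICER for each library, were used only as coordinates, and the lists from mice on long-term diets are not reported here.

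Counts were fitted in R 4.3.3 with edgeR 4.0.16 (filterByExpr, TMM, quasi-likelihood F-test, Benjamini-Hochberg adjustment) with 1 mean per group. CPM values are TMM-scaled, and log2 levels used a prior count of 2. Alternatives were DESeq2 1.42.0, limma-voom 3.58.1, other scaling and filters, a replicate block, each library left out and, chosen after seeing the data, 2 libraries left out together and offsets fitted by loess to transcript length and GC content. The scripts were tested on simulated data. The depth of at least 39904191 reads limits counting error only.

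Responses were called opposite, on the HFD side, on the LFD side or same direction at a ratio of 3 between them, from group means of log2 levels. A call on the HFD or LFD side means a response there over 3 times the other in size, and not that the other was absent. Text genes were the 12 smallest p per direction, list members with an unadjusted p under 0.05, up to 3 defining members per list and the study's genes; the 37 lists and these choices were made with earlier results of these data known. Transcript lengths were those of the longest coding sequence in GENCODE vM1, with 98.7% of protein-coding genes matched. Table loci overlapped that annotation for 99.8% of 14428 genes compared.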

Additional observations from a re-analysis of the deposited data

How the results depend on the processing

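The direction of each gene's interaction was the same under every alternative run for the 62 genes recomputed, except Msln, which was 0.019 with HFDLFB replicates 1 and 2 left out together. Most of these genes were chosen for a small p in the same libraries, so a stable sign was largely fixed by the choice. The count of genes at an adjusted p under 0.05 was 0 under every edgeR alternative with 1 library left out, and 72 with DESeq2 and 3 with HFDLFB replicates 1 and 2 left out together (Cela2a, Cpb1 and Ctrl, all pancreatic enzymes, named after their values were seen and high in HFDLFB replicate 3, then the only library of its group and assumed to vary like the others). For the response on the HFD it was 80 with DESeq2 and 4 with those 2 libraries left out. The count at p under 0.001 was 173 with DESeq2, 5 with those libraries left out, 5 with offsets for length and 5 with offsets for length and GC content, and 2 to 121 over single libraries left out. With those libraries left out, counts at an unadjusted p under 0.05 were 1 for goblet, 0 for mesothelium, 0 for adipocyte, 3 for interferon, 1 for ribosomal and 17 for oxidative phosphorylation genes. Limma-voom gave 4 for mesothelium, 1 for adipocyte and 15 for cell cycle. Offsets for length gave 12 ribosomal and 14 oxidative phosphorylation genes, and with GC content 14, 10, 3 goblet and 5 interferon genes. Over single libraries left out the counts ran from 2 to 7 for goblet, 3 to 8 for mesothelium, 3 to 11 for adipocyte, 3 to 18 for cell cycle, 5 to 12 for interferon, 19 to 67 for ribosomal and 30 to 58 for oxidative phosphorylation genes. Libraries of equal number did not consistently deviate together (r -0.591 to 0.451 over 18 pairs, 6 above 0.1, and 1 of 12 libraries best with its own number). No pairing by number was seen, but 3 libraries a group are too few for these correlations to exclude it. Offsets for length and GC content gave the value nearest 0 for Ndufb7 (0.17), Atp5g1 (0.27), Psmb3 (0.28), Mrps12 (0.43), Ptprc (-0.55), Dpp4 (-0.56) and Ap4e1 (-0.61). The fit with the replicate block gave 2 genes at p under 0.001, 4 mesothelial and 33 ribosomal genes. With a ratio of 2 in place of 3, 16 of the 24 genes with the smallest p stayed opposite, against 20. With 3 libraries a group the median standard error was 0.326, which is not a limit of detection. In a gene with that standard error, an interaction of that size or smaller could not be told from the spread between libraries.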
